A study of Homo sapiens with 18 samples.

Results

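Transcripts of ACO1 and 8 other genes of cellular iron handling were followed in KNS-42 cells, a human glioma cell line, after Cas9 cutting of the RNA helicase gene DDX3X. The 9 genes (ACO1, IREB2, FBXL5, TFRC, SLC11A2, FTH1, FTL, NCOA4 and SLC40A1) were taken by name from the 58050 gene identifiers of the expression table. The set was selected on the measured values of ACO1, which was about 8-fold lower with the DDX3X guide in parental cells. The parental values of the set are therefore given as a description, and no support is drawn from their tests. Genes outside the set are given with their tests. Of the 9 genes, 8 passed a filter on low values (a normalised read count of at least 10 in at least 3 libraries), and SLC40A1 did not.

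Every group, controls included, consisted of KNS-42 cells that expressed Cas9 and were grown with puromycin. The cells were either parental, or overexpressed a rescue copy with optimised codons, of DDX3X in DDX3Xoe cells and of its Y-linked counterpart DDX3Y in DDX3Yoe cells. Each kind of cell was transduced with lentivirus for guide 395, which targets the endogenous DDX3X gene, or for a guide against AAVS1 as negative control. RNA was taken on day 7 and sequenced from the 3' ends of its polyadenylated transcripts, with 3 libraries in each of the 6 groups. The labels describe 1 line of each kind and do not say whether replicates were separate cultures, and a p-value here reflects library-to-library spread that may be technical. In RNA from whole cultures, fewer cells that express a gene and less RNA per cell cannot be told apart.

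Cells control iron through 2 RNA-binding proteins, the products of ACO1 (IRP1) and IREB2 (IRP2). When iron is scarce, both bind a hairpin called the iron-responsive element. Bound at the 5' end of a messenger RNA, as in the ferritin genes FTH1 and FTL and the iron exporter gene SLC40A1, they block translation. Bound at the 3' end, as in the transferrin receptor gene TFRC, they protect the messenger RNA from decay. When iron is plentiful, the ACO1 protein takes up an iron-sulfur cluster and works as a cytosolic aconitase, which converts citrate to isocitrate, and the FBXL5 protein directs IRP2 to the proteasome.

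The hairpin cores that link these genes were read from the GENCODE 29 transcripts. The search used the sense strand of coding transcripts for a bulged C, 5 bases, the loop CAGTGN and 5 bases that pair with the first 5, with G-U pairs allowed, 17 bases in all. It matched 4 of the 9 genes, at 7 places, against 1.48% of 19684 coding genes. Capitals mark the loop, and each core is written 5′ to 3′ with its position on GRCh38.
FTH1 (5' UTR, chr11:61967580-61967596, minus strand): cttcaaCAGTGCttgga
FTL (5' UTR, chr19:48965341-48965357, plus strand): cttcaaCAGTGTttgga
SLC40A1 (5' UTR, chr2:189580667-189580683, minus strand): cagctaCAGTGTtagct
TFRC (3' UTR, chr3:196050985-196051001, minus strand): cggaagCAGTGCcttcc
TFRC (3' UTR, chr3:196050581-196050597, minus strand): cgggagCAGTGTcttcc
TFRC (3' UTR, chr3:196050516-196050532, minus strand): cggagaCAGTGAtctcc
TFRC (3' UTR, chr3:196050469-196050485, minus strand): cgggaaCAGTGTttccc
The FTH1 and FTL cores share the same stem bases and differ in the last base of the loop. The core lay in 7 of 8 coding FTH1 transcripts, in the single FTL transcript, in 1 of 5 for SLC40A1, and in 3 of 4 for TFRC at each of its 4 places. For ACO1, IREB2, SLC11A2, FBXL5 and NCOA4 these letters were not in the annotated transcripts, which says nothing more about binding.

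Totals over genes ran from 5.67 M to 13.2 M reads (M for mega) between libraries, the median being 8.85 M. DDX3X itself, the targeted gene, was at 1780, 1923 and 1729 normalised read counts in parental AAVS1 libraries and 861, 844 and 953 with guide 395. In DDX3Yoe cells it was at 1379, 1557 and 1439 with AAVS1 and 878, 739 and 653 with guide 395. Of the DDX3Xoe libraries, those labelled AAVS1 held 668, 1504 and 1162, and those labelled guide 395 held 1416, 716 and 578. The replicate 1 libraries labelled DDX3Xoe thus went against their guide labels. The guide effect of each tested member in DDX3Xoe cells is given with and without both of them. For genes outside the set it is given only with them. DDX3Y was listed at 0 in all 18 libraries, and the reads do not show the codon-optimised copies separately. Of 8 markers of glioma and neural progenitor cells, 7 passed the filter, with SOX2 between 8999 and 28885, VIM between 11361 and 50680 and OLIG2 at 0 throughout. The microglia and leukocyte, endothelial, erythroid and hepatocyte marker lists, 6 genes each, summed to at most 179, 103, 6.39 and 10.3 in any library.

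ACO1 (ENSG00000122729, chromosome 9, 32384603 to 32454769, plus strand, a protein-coding gene) had the widest range of the tested genes of the set, from 23.7 to 458 normalised read counts, a 19.3-fold span. In parental cells it was at 245, 458 and 161 in the AAVS1 libraries and at 23.7, 33.5 and 41.7 with guide 395. All 3 guide 395 libraries lay below all 3 control libraries. The means were 288 ± 153 (SD, n = 3) and 33.0 ± 9.0 (SD, n = 3), an 8.73-fold ratio, or a fitted log2 fold change of -2.99 (SE 0.45). Between 27 and 40 reads stood behind each guide 395 value and 144 to 369 behind each control value.

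The rescue lines, which the choice of genes did not use, held ACO1 between these extremes. In DDX3Yoe cells ACO1 was at 162, 452 and 245 with AAVS1 (286 ± 149, SD, n = 3) and at 121, 68.4 and 152 with guide 395 (114 ± 42.4, SD, n = 3). The 2 groups did not overlap, but the highest guide 395 library and the lowest control library were close. The log2 fold change was -1.27 (95% interval -2.22 to -0.31), with an unadjusted p of 0.0122 and an adjusted p of 1 in limma over 15228 genes. It did not pass the threshold of an adjusted p under 0.05, and leaving out 1 library gave -1.61 to -0.87, the latter without AAVS1 replicate 2.

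In DDX3Xoe cells ACO1 was at 338, 217 and 289 in the libraries labelled AAVS1 (281 ± 60.7, SD, n = 3) and at 199, 100 and 256 in those labelled guide 395 (185 ± 78.7, SD, n = 3). These groups overlapped, since guide 395 replicate 3 was above AAVS1 replicate 2. The log2 fold change was -0.68 (95% interval -1.64 to 0.27, limma adjusted p 1). It was -0.65 without both replicate 1 libraries, and leaving out 1 library gave -0.97 to -0.30, the latter without guide 395 replicate 2.

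**Figure D1:**
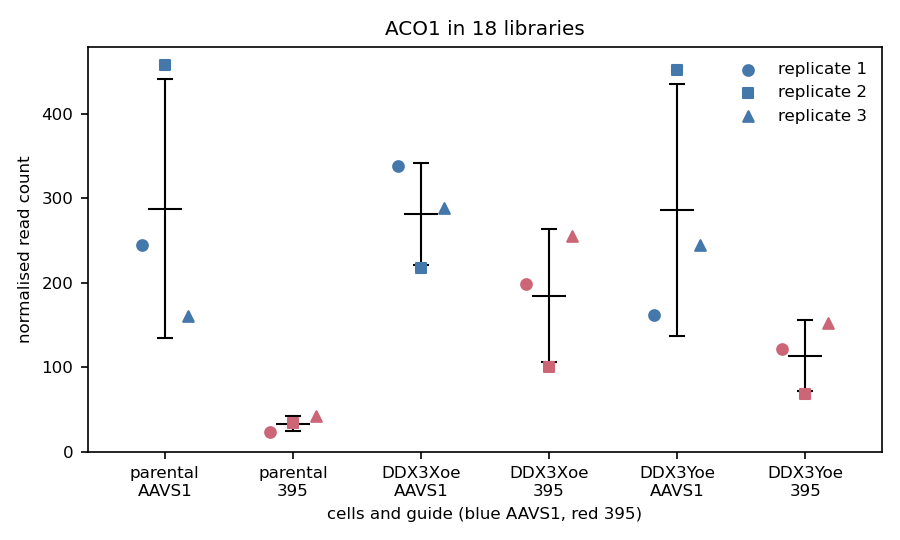
Normalised read count of ACO1 (y axis) in each of the 18 libraries, by cells and guide (x axis); points are libraries, the horizontal bar is the mean and the whiskers are 1 SD (n = 3). The 3 parental guide 395 libraries sit between 23.7 and 41.7, below the other 15 libraries.

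Ordered by mean, ACO1 was highest in parental cells with AAVS1, followed by DDX3Yoe with AAVS1, DDX3Xoe with AAVS1, DDX3Xoe with guide 395, DDX3Yoe with guide 395 and parental cells with guide 395. Neighbours in this order overlapped except at the last step, between DDX3Yoe and parental cells with guide 395. Of the 15 pairs of groups, 8 did not overlap, and 5 of these held the parental guide 395 group. Between the parental guide 395 and AAVS1 groups, 20.6% of all tested genes did not overlap. Shares for pairs from different lines were not computed. ACO1 was chosen for being low in the parental guide 395 group, so nothing is read from these counts. Under the control guide the lines were close: the log2 difference was 0.08 for DDX3Xoe against parental, 0.00 for DDX3Yoe against parental (95% interval -0.96 to 0.95) and -0.08 for DDX3Yoe against DDX3Xoe, with limma adjusted p of 1 in each. The sign of these differences varied with the scaling and with the libraries kept. Comparisons with parental cells share libraries with the one that chose ACO1, so their size is a description. The guide effect was 2.31 log2 units less negative in DDX3Xoe than in parental cells and 1.72 less negative in DDX3Yoe. The rescue lines did not differ detectably from each other in their guide effect (DDX3Yoe minus DDX3Xoe -0.58, 95% interval -1.93 to 0.77, limma adjusted p 1), and this interval leaves room for a difference of either sign.

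Among all members, 1 of the 8 tested genes, ACO1, was called with guide 395 in parental cells at a limma adjusted p under 0.05, against 1.78% of the 15228 genes tested (271 genes, or 677 with the replicate number as a block). Nothing is read from that count, because the same contrast chose the genes. In DDX3Xoe and in DDX3Yoe cells none of the 8 was called for guide 395, where 0.0% of genes were called in each by limma, edgeR and DESeq2. At an unadjusted p under 0.05 in limma it was 0 of the 8 in DDX3Xoe cells, against 2.07% of genes (315), and 1 of the 8, ACO1, in DDX3Yoe cells, against 1.0% (153). The difference of guide effects between DDX3Xoe and parental cells called none of the 8 and 0.046% of all genes in limma. DESeq2 called 86 genes there, ACO1 among them (log2 2.55). Nothing is read from that ACO1 call, because the contrast holds the parental libraries that chose the gene. In limma the 7 genes behind the 0.046% became 0 without both DDX3Xoe replicate 1 libraries, and 0 to 4 with any 1 of the 18 libraries left out. The other 2 differences of guide effects and the 3 comparisons of lines under AAVS1 called none of the 8 and 0.0% of all genes in limma, with 136 to 737 genes at an unadjusted p under 0.05. DESeq2 called 9 genes, none of them a member, for DDX3Yoe minus parental and none in the other 4, and edgeR called none in all 5.

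The 7 tested members other than ACO1 had guide effects of both signs in each line, and none passed the test. Their log2 fold changes with guide 395 ran from -0.26 to 0.78 in parental cells (median 0.02, all tested genes 0.02), from -0.20 to 0.52 in DDX3Xoe cells (median 0.13, all genes -0.02) and from -0.28 to 0.13 in DDX3Yoe cells (median -0.05, all genes 0.00). Without both DDX3Xoe replicate 1 libraries the values in DDX3Xoe cells ran from -0.27 to 0.75 with a median of 0.41, and 5 of the 7 were above 0, the same number as with them. Ranges of the guide 395 and control libraries failed to overlap for 1 of 8 members in parental cells (ACO1; 20.6% of all genes), for 1 in DDX3Xoe cells (SLC11A2; 3.87% of all genes) and for 2 in DDX3Yoe cells (ACO1 and IREB2; 7.49% of all genes).

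**Figure D2:**
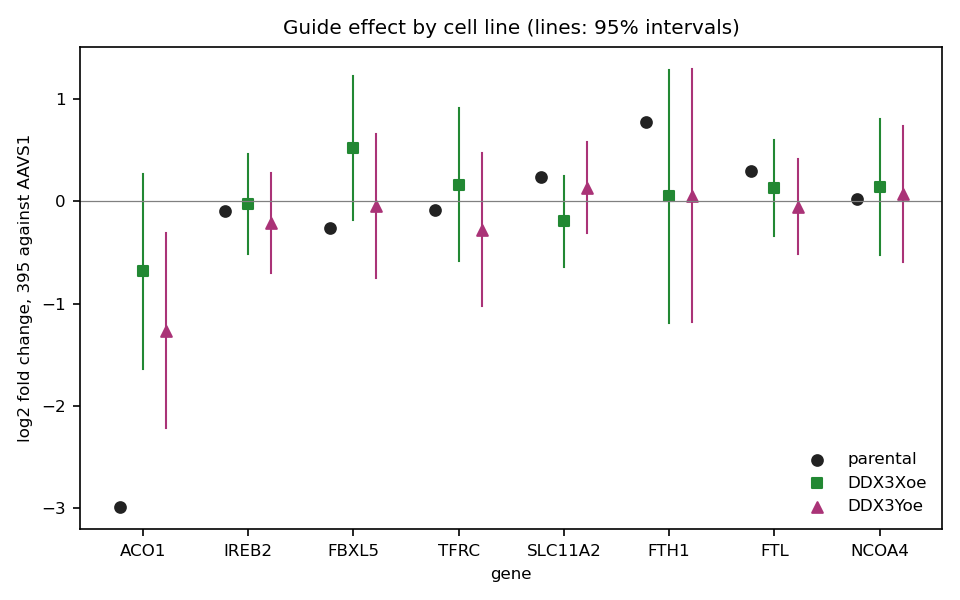
Log2 fold change of guide 395 against AAVS1 (y axis) for the 8 tested genes (x axis) in parental, DDX3Xoe and DDX3Yoe cells; vertical lines are 95% intervals, and parental points have none because that contrast chose the genes. ACO1 stands at -2.99 in parental cells, and for the other genes each interval of the rescue lines includes 0.

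IREB2 (chromosome 15) encodes IRP2, the second iron regulatory protein, which has no aconitase activity. In parental cells it was at 1279, 1417 and 1629 with AAVS1 and at 1179, 1171 and 1751 with guide 395. The ranges overlapped, with 2 guide 395 libraries below and 1 above all controls, and the log2 fold change was -0.10. In DDX3Yoe cells the libraries were tight, at 1764, 1845 and 1820 with AAVS1 and 1599, 1581 and 1504 with guide 395. All guide 395 values there lay below all controls, but the difference was small (log2 -0.21, 95% interval -0.70 to 0.28, limma adjusted p 1). In DDX3Xoe cells the log2 fold change was -0.03 (95% interval -0.52 to 0.46), or -0.15 without both replicate 1 libraries, and the highest IREB2 value of the set, 2321, was in AAVS1 replicate 2.

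FBXL5 (chromosome 4) encodes the iron-sensing subunit of the ubiquitin ligase that removes IRP2. It was at 375, 158 and 229 in parental AAVS1 libraries and at 246, 193 and 164 with guide 395, fully overlapping. In DDX3Xoe cells it was at 324, 141 and 216 in libraries labelled AAVS1 and 336, 372 and 233 in those labelled guide 395. The groups overlapped (log2 0.52, 95% interval -0.19 to 1.23, limma adjusted p 1), and the estimate was 0.75 without both replicate 1 libraries. The log2 fold change in DDX3Yoe cells was -0.05 (95% interval -0.75 to 0.66).

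TFRC (chromosome 3), the receptor through which cells take up transferrin-bound iron, carried 4 of the 7 hairpin cores printed above. Its parental values were 1145, 692 and 690 with AAVS1 and 879, 616 and 848 with guide 395. These overlapped (log2 -0.08), while ACO1 was 8.73-fold lower in the same guide 395 libraries. The log2 fold change was 0.16 (95% interval -0.58 to 0.91) in DDX3Xoe cells, or 0.56 without both replicate 1 libraries, and -0.28 (95% interval -1.03 to 0.47) in DDX3Yoe cells. SLC11A2 (chromosome 12), which encodes the divalent metal transporter DMT1, was at 614, 350 and 434 in parental AAVS1 libraries and 550, 504 and 552 with guide 395. In DDX3Xoe cells it was at 515, 582 and 516 in libraries labelled AAVS1 and 502, 414 and 495 in those labelled guide 395, without overlap. That difference was small (log2 -0.20, 95% interval -0.64 to 0.25, limma adjusted p 1) and was -0.27 without both replicate 1 libraries. In DDX3Yoe cells the estimate was 0.13 (95% interval -0.31 to 0.58).

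Ferritin, the iron storage shell, is built from the FTH1 (heavy chain, chromosome 11) and FTL (light chain, chromosome 19) proteins. FTH1 was at 4572, 1294 and 3650 in parental AAVS1 libraries and 7397, 4093 and 3578 with guide 395. After ACO1 it had the widest span of the tested members, 7.04-fold over the 18 libraries, and within the DDX3Xoe group labelled AAVS1 it ran from 1051 to 6481. The parental log2 fold change was 0.78 (SE 0.59), or 0.22 without AAVS1 replicate 2, and the rescue lines gave 0.05 in each (95% intervals -1.19 to 1.29 in both). Without both replicate 1 libraries the DDX3Xoe estimate was 0.66. On all 18 libraries, edgeR and DESeq2 gave the DDX3Xoe estimate a negative sign. FTL varied less. It was at 3054, 4314 and 3301 in parental AAVS1 libraries and 4599, 4559 and 3837 with guide 395, each guide 395 library above the control of its number (log2 0.30). The FTL estimate was 0.13 (95% interval -0.34 to 0.60) in DDX3Xoe cells, or 0.27 without both replicate 1 libraries, and -0.05 (95% interval -0.52 to 0.41) in DDX3Yoe cells. Both ferritin genes have processed copies, which can share reads with the parent gene. The 25 annotated FTH1 copies together held 0.948% of the FTH1 level and the 16 FTL copies 0.0417% of the FTL level. These counts do not show how many reads were shared, so they set no bound on that uncertainty.

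NCOA4 (chromosome 10), the receptor that delivers ferritin to autophagy for iron release, was at 687, 321 and 434 in parental AAVS1 libraries and 622, 434 and 373 with guide 395. Its estimate was close to 0 in all 3 lines: 0.02 in parental, 0.14 (95% interval -0.53 to 0.80) in DDX3Xoe and 0.07 (95% interval -0.59 to 0.74) in DDX3Yoe cells. In DDX3Xoe cells it was 0.41 without both replicate 1 libraries. SLC40A1 (chromosome 2), the gene for the iron exporter ferroportin, was near the detection limit. It was at 0 in 3 libraries and at 10.6 in the highest one, parental guide 395 replicate 1, where it rested on 12 reads. A count of 0 allows up to 3 reads, counting error only, so no fold change is given.

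**Figure D3:**
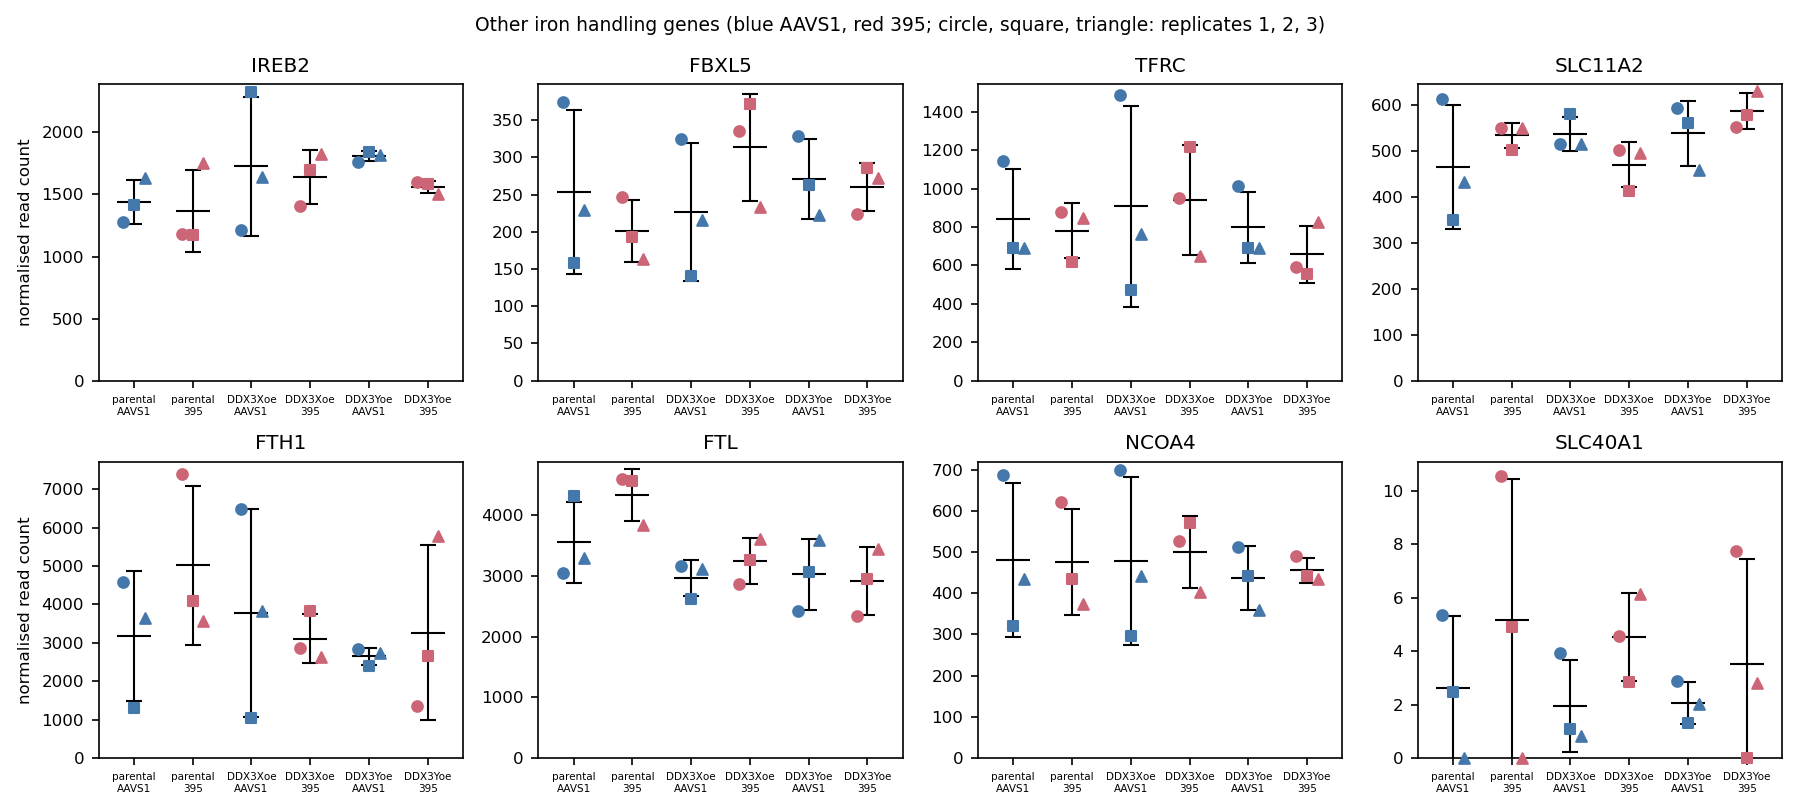
Normalised read count (y axis) of the 8 members other than ACO1 in every library, by cells and guide (x axis); symbols are replicates, bars are means and whiskers are 1 SD (n = 3). The guide 395 and control libraries overlap in parental cells for each gene shown, and FTH1 has the widest spread of those that passed the filter.

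Some members moved with each other between replicates of a group. After subtracting each group's mean log2 value, FBXL5 and NCOA4 had a Pearson r of 0.95 over 18 libraries, and 5 of 9079 genes (0.0551%) were at least as extreme with NCOA4. TFRC and NCOA4 had r = 0.81, and 8.87% of genes were at least as extreme with NCOA4, so that value is common in this table. IREB2 ran the other way, with r = -0.74 against NCOA4 (12.9% of genes as extreme). ACO1 was only weakly related to the other 7 tested members on this measure, with r between -0.34 and 0.38. The libraries share depth and handling, and what sets these values was not tested.

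Genes whose profile over the 18 libraries was most like that of ACO1 came from other functions. Of 9079 genes with a mean of at least 100, the highest r of log2 values was 0.92 for SLC25A6, a mitochondrial ADP/ATP carrier, followed by NOP53 (0.91), a ribosome biogenesis factor, ACTA2 (0.90), smooth muscle actin, TMOD1 (0.90), tropomodulin, and the noncoding DLX6-AS1 (0.89). The 3 most opposite profiles belonged to TAP1 (-0.95), an antigen peptide transporter, HLA-B (-0.95), an MHC class I heavy chain, and C1R (-0.94), a complement protease. The 1st and 99th percentiles of r were -0.83 and 0.80. The 3 parental guide 395 libraries stand apart in all of these profiles. Over the other 15 libraries r was 0.84 for SLC25A6 and 0.62 to 0.74 for the other 4 alike, and -0.81 to -0.85 for the opposite genes. These genes were picked over all 18 libraries, and percentiles of r over the 15 were not computed, so this is a description.

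HLA-B and TAP1 are induced by interferon, and 10 interferon-stimulated genes were therefore set beside ACO1. Their summed level was 73118, 89245 and 103351 in parental AAVS1 libraries and 385885, 238956 and 223054 with guide 395. In DDX3Yoe cells it was 81326, 14163 and 63856 with AAVS1 and 112676, 147753 and 75594 with guide 395, and in DDX3Xoe cells 27697, 92376 and 57090 against 40200, 124993 and 71254. Within each rescue line the library with the highest sum had the lowest ACO1, and the library with the lowest sum had the highest ACO1. In both lines the former was labelled guide 395 and the latter AAVS1, so these extreme libraries do not tell guide and sum apart. Within groups, where the guide label is the same, ACO1 ran in the opposite order to the sum in both DDX3Yoe groups. The same order was seen in DDX3Xoe AAVS1 and parental guide 395 libraries, but not in DDX3Xoe guide 395 or parental AAVS1 libraries. With 3 libraries per group, this is a description. The lowest sum in DDX3Xoe cells was in AAVS1 replicate 1, which went against its guide label. All 10 genes had a positive log2 fold change with guide 395 in each line, with medians of 1.62 in parental, 0.61 in DDX3Xoe and 1.18 in DDX3Yoe cells. The DDX3Xoe signs and median include both replicate 1 libraries that went against their guide labels. Of the 10 genes, 1, IFIT2, was called, in parental cells (log2 3.22, limma adjusted p 0.0174), against 1.78% of all genes tested. The part of the interferon genes in the ACO1 values was not tested.

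The nearest annotated gene to ACO1 in the table belongs to the same group. DDX58, which encodes the RNA sensor RIG-I, lies on the minus strand from 32455705 to 32526324, with its 3' end 935 bases beyond that of ACO1. It was at 897, 961 and 2711 in parental AAVS1 libraries and 2804, 4152 and 4383 with guide 395, without overlap, the opposite direction to ACO1. Its log2 fold change was 1.48 (SE 0.65) and did not pass the threshold (limma adjusted p 0.252), and it was 0.83 in DDX3Xoe and 0.83 in DDX3Yoe cells (adjusted p 1 in each). The other 4 tested genes within 500 kb, NDUFB6, SMIM27, TMEM215 and TOPORS, had parental log2 fold changes of -0.14, -0.08, 0.28 and 0.09, and none of the 5 was called in any of the 9 comparisons. Whether reads were counted by strand is not given in the sources used here.

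**Figure D4:**
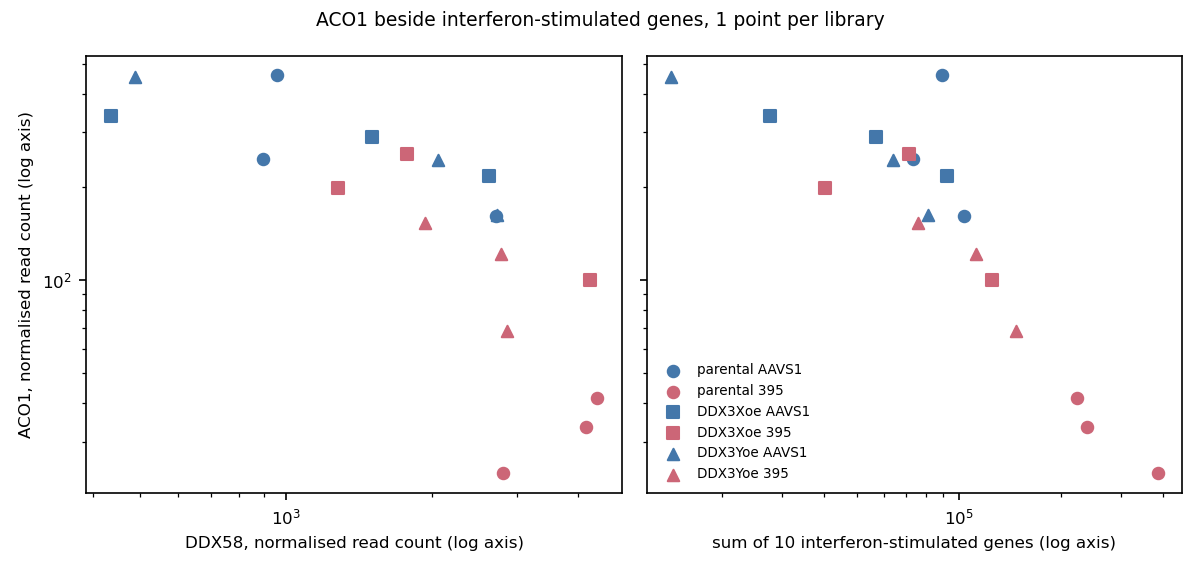
ACO1 (y axis, normalised read count, log axis) against DDX58 (left) and the sum of 10 interferon-stimulated genes (right), both on log axes, with 1 point per library. Libraries with a higher interferon sum tend to have less ACO1, and the 3 parental guide 395 libraries, at sums from 223054 to 385885, are lowest in ACO1.

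Genes around the set were read from lists of iron-linked pathways. Of 30 other genes of iron transport and storage, 20 were tested and 1 was called in parental cells, against 1.78% of the 15228 genes tested. The called gene, SLC25A28, encodes the mitochondrial iron importer mitoferrin 2. It rose from 308, 239 and 457 to 1461, 907 and 829 (log2 1.67, SE 0.36, limma adjusted p 0.027). It was at 422, 154 and 339 with AAVS1 and 453, 489 and 523 with guide 395 in DDX3Yoe cells, where the estimate did not pass (log2 0.80, limma adjusted p 1). In DDX3Xoe cells it was at 300, 190 and 392 in libraries labelled AAVS1 and 338, 506 and 357 in those labelled guide 395 (log2 0.48, limma adjusted p 1). The other 19 included 10 below 0 in parental cells, and the list's median was 0.01 against 0.02 for all genes.

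None of the 14 tested heme genes, 27 iron-sulfur cluster assembly genes, 22 genes of citrate and the TCA cycle, or 8 other transcripts with a described iron-responsive element was called in any of the 9 comparisons. In parental cells their medians were -0.30, -0.25, -0.24 and -0.17. The smallest p-values belonged to BLVRA (log2 -0.76, limma adjusted p 0.162), which encodes a biliverdin reductase, CIAPIN1 (-0.57, adjusted p 0.131), a cytosolic iron-sulfur assembly factor, IDH2 (-1.53, adjusted p 0.0677), the mitochondrial NADP-dependent isocitrate dehydrogenase, and EPAS1 (-1.35, adjusted p 0.176), the hypoxia factor HIF-2 alpha. IDH2 was at 297, 767 and 386 in AAVS1 libraries and at 145, 153 and 162 with guide 395, without overlap. In the rescue lines the 4 medians lay between -0.13 and 0.02.

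**Figure D5:**
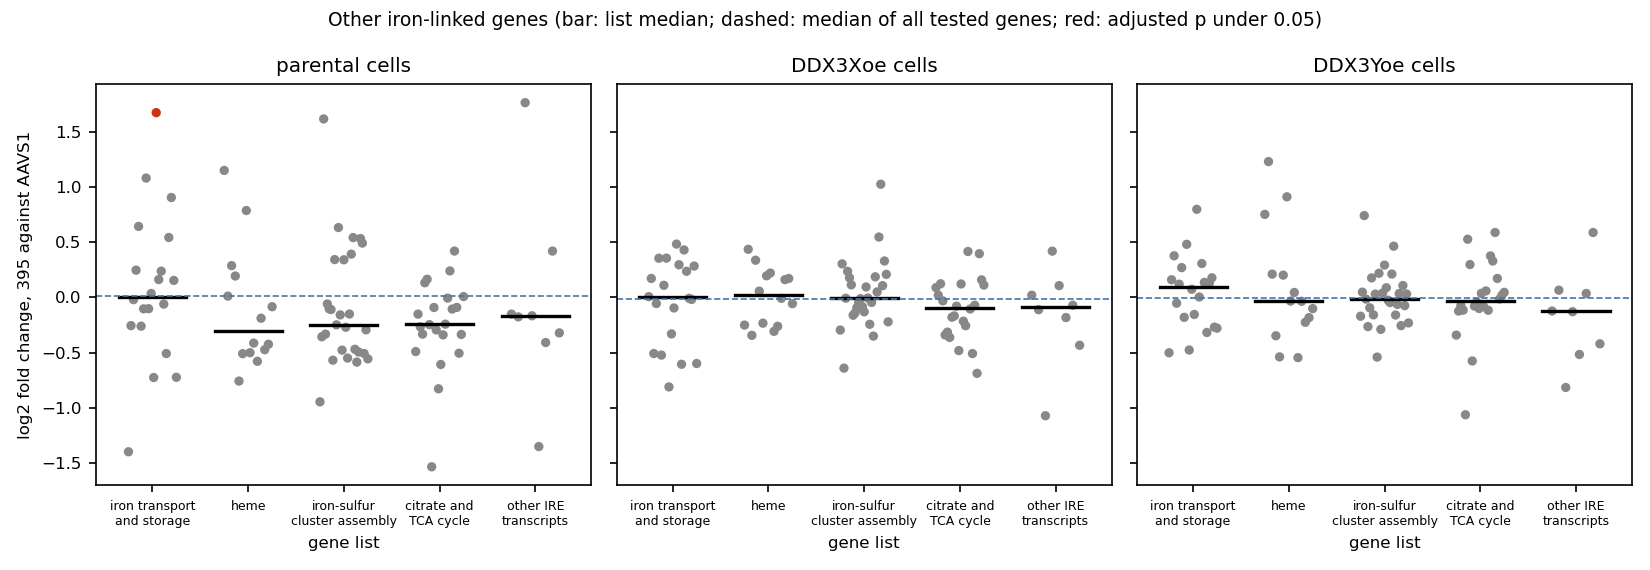
Log2 fold change of guide 395 against AAVS1 (y axis) for the tested genes of 5 iron-linked lists (x axis) in parental, DDX3Xoe and DDX3Yoe cells; bars are list medians, the dashed line is the median of all tested genes and red marks an adjusted p under 0.05. SLC25A28 in parental cells is the only red point.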

How the data were processed

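The deposited table holds a normalised signal per gene, in which the authors had scaled each library's gene counts by a size factor, judging from the values' steps. Reads were processed on GRCh38 with featureCounts 1.5.1, RSEM 1.3.0 and STAR 2.5.2b named among the tools, per the submitters' processing notes. Every value was a whole number of reads within 0.01 reads after division by the library's smallest step, which gave the counts for edgeR 4.0.16 and DESeq2 1.42.0, used as alternatives. Groups came from the sample labels.

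Log2(value + 1) was fitted with limma 3.58.1 (R 4.3.3), 6 group means over 18 libraries and an intensity trend, and p-values were Benjamini-Hochberg adjusted over 15228 genes. Fold changes on this scale understate changes of low genes. The fit was tested on simulated data. Those counts were drawn independently for each library with the same spread setting for all genes, so they do not stand in for the spread of these libraries. GENCODE 29 held 57446 of 58050 identifiers. Replicates of a group were not copies of one library, with a chi-square over genes of 24.1 to 171 per degree of freedom. Deviations of same-numbered libraries had r = 0.57, 0.20 and 0.28 in parental, 0.23, -0.028 and 0.30 in DDX3Xoe and 0.075, 0.11 and 0.24 in DDX3Yoe cells. Only the parental 0.57 stood apart, so these values do not show which lines were paired. The main fit used no pairing, and the block on replicate number was an alternative. What the numbers mark is not labelled.

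The members and lists were chosen with earlier results of these data known. Genes named beside the members were those called in a list or with the smallest p, those most like ACO1, and its neighbours. Alternatives were other pseudocounts, filters, scalings, moderation, the compared groups alone, the block, count models and left-out libraries.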

Additional observations from a re-analysis of the deposited data

How the results depend on the processing

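The parental ACO1 estimate, which chose the gene and so is no support, was -3.15 to -2.85 over 13 alternatives and -3.34 to -2.59 with each library left out. By design, only other pseudocounts, scalings, count models and left-out parental libraries could move that estimate. The number of members called changed once, from 0 to 1 for DDX3Xoe minus parental with DESeq2. That member was ACO1, and nothing is read from the call, because the contrast holds the parental libraries that chose the gene. The replicate block fitted the same replicate effects in all 3 lines, so it did not model pairing of the parental libraries alone. With the block the parental ACO1 estimate was -2.99, which could not change because each group held replicates 1, 2 and 3. No call of a member changed with it. The genes called went from 271 to 677 in parental cells and from 7 to 16 for DDX3Xoe minus parental. Without the block, that last count was 0 when both DDX3Xoe replicate 1 libraries were left out. Other settings moved the parental count to 159 (no filter), 77 (compared groups alone) and 909 (DESeq2), and leaving out 1 library gave 60 to 404, lowest without parental AAVS1 replicate 2.

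Small estimates changed sign. NCOA4 in parental cells was -0.049 with median-centring, -0.014 with quantile normalisation, -0.04 with edgeR and -0.03 with DESeq2. IREB2 in DDX3Xoe was 0.042 with quantile normalisation, and FTH1 there was -0.30 with edgeR and -0.28 with DESeq2. ACO1 under AAVS1 was 0.018 (median-centring) and 0.072 (quantile) for DDX3Yoe against parental. For DDX3Xoe against parental it was -0.047 (edgeR), -0.047 (DESeq2) and -0.065 (without both DDX3Xoe replicate 1 libraries), and for DDX3Yoe against DDX3Xoe 0.025, 0.025 and 0.061. The cause was not tested.

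With 1 library left out, ACO1 under AAVS1 ranged from -0.27 to 0.48 (DDX3Xoe against parental), -0.40 to 0.40 (DDX3Yoe against parental) and -0.48 to 0.26 (DDX3Yoe against DDX3Xoe). The guide effect in parental cells ranged from -0.56 to 0.061 for FBXL5, -0.29 to 0.002 for IREB2, -0.23 to 0.32 for NCOA4 and -0.21 to 0.16 for TFRC. In DDX3Xoe it ranged from -0.70 to 0.61 for FTH1, -0.26 to 0.21 for IREB2, -0.17 to 0.45 for NCOA4 and -0.23 to 0.60 for TFRC. In DDX3Yoe it ranged from -0.18 to 0.10 for FBXL5, -0.48 to 0.57 for FTH1, -0.20 to 0.10 for FTL and -0.063 to 0.20 for NCOA4. The 27 to 40 reads behind each ACO1 value in parental cells with guide 395 limit its precision.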

Other observations

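In each rescue line, the 2 iron-linked genes with the smallest unadjusted p among the lists had a limma adjusted p of 1. With guide 395 in DDX3Xoe cells these were SLC25A1 (log2 -0.69), the mitochondrial citrate carrier, and IDH3G (-0.48), a subunit of the NAD-dependent isocitrate dehydrogenase. In DDX3Yoe cells they were SLC25A28 (0.80) and BLVRA (-0.54).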
